A study of Mus musculus with 12 samples.

Results

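Plaur, Procr and F3 encode membrane receptors of the urokinase and coagulation systems, and each was represented by a single probe on the array used here. The members were chosen from earlier results of the same comparison, shear against control, so their changes are given as a description with no test. They are 3 of the 10225 genes named on the array. Plaur (Entrez gene 18793) was feature 18840, Procr (Entrez gene 19124) was feature 18919 and F3 (Entrez gene 14066) was feature 9560. All 3 probes had a value in all 12 samples.

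The samples were total RNA of the mouse cell line MC3T3-E1, osteoblast-like and derived from calvaria as a clone, so a result holds for this line. The control group (6 samples) was kept static in the flow set-up, and the shear group (6 samples) was placed in a parallel plate chamber under pulsatile flow. Per the labels, flow gave an average of 5 dyn per square centimetre at 1 Hz for 5 h, in medium with 1% serum at 37 °C. Both groups had grown to confluence on glass slides in medium with 5% serum, and neither carried a genetic change that the labels name. Nothing in the labels says that samples came from separate cultures, so errors and p-values cover the spread among the samples as deposited, and that spread may be technical. A larger share of cells with a transcript and more of that transcript per cell cannot be told apart in such samples.

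Plaur encodes the urokinase receptor uPAR, a protein tethered to the membrane by a lipid anchor. It binds urokinase at the cell surface, where the enzyme turns plasminogen into plasmin, and it also works with integrins and matrix proteins. Procr encodes the endothelial protein C receptor, which presents protein C to the complex of thrombin and thrombomodulin, the step that makes the anticoagulant activated protein C. F3 encodes tissue factor, the receptor of factor VII and the starter of the extrinsic coagulation cascade. Tissue factor and the protein C receptor are also known for signalling through protease-activated receptors, and growth factors are known to induce tissue factor and the urokinase receptor in several cell types.

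The sequences around the starts of the 3 genes are shown because the genes were higher in the same samples. RefSeq's promoter table (build GRCm38.p6) held 1 window of 300 bases for each gene, 250 bases before the transcript start and 50 bases after it. Capitals mark the letters of the AP-1 motif, TGANTCA, and of the GC box, GGGCGG, on either strand.
Plaur, chr7:24462233-24462532, plus strand: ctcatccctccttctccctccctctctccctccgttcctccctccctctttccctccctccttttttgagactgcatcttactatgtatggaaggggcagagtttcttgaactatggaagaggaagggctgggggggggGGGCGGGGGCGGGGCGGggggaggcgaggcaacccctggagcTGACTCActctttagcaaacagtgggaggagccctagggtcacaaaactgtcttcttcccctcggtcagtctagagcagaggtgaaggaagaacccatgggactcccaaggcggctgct
Procr, chr2:155750967-155751266, plus strand: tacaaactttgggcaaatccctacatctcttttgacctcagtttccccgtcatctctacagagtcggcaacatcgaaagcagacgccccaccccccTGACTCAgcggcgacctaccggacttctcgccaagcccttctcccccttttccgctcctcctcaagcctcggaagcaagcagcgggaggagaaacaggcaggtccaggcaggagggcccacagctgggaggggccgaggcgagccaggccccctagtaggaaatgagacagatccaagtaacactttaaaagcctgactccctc
F3, chr3:121723287-121723586, plus strand: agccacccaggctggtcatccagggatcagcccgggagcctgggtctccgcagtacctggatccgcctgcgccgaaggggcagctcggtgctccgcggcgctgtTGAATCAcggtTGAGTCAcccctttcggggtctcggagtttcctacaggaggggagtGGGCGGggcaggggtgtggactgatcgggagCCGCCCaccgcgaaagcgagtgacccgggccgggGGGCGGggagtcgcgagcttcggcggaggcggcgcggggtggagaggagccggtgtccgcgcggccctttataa

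Each window held the AP-1 letters, which bind dimers of the Fos and Jun families. Plaur had them at position -69 from the start, as TGACTCA, and Procr had the same letters at -154. F3 had a pair of matches, TGAATCA at -146 and TGAGTCA at -135. Over all 32851 windows of this length in the table, 7.81% held the AP-1 letters on either strand. By gene, these letters were found for 8.97% of the 27025 genes with a window and for 6 of the 42 tested pathway genes described below that had one (14.3%). Those 6 were F2r (the thrombin receptor gene), Anxa2, Serpinb2, Hfe, Gp1bb and Itga3. Their log2 changes, shear minus control, were 1.13, 0.33, 0.09, -0.02, -0.26 and -0.57 in turn.

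The GC box, to which Sp1 binds, was found 3 times in F3 (in 1 case on the minus strand) and 3 times in Plaur, where the matches formed an unbroken run, and was not found in Procr. It was in 35.7% of all windows. The letters of the EGR motif (GCGTGGGCG, in 0.612% of windows), the TEAD motif (CATTCC, in 14.7%) and the CRE (TGACGTCA, in 1.79%) were not found in any of the 3 windows. G and C made up 70.3% of the F3 window, 59.3% of the Plaur window and 58.3% of the Procr window, against a median of 52.7%. A match says only that the letters are there, and the binding of a factor was not measured.

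Values below are the deposited log2 values, the fluorescence of a spot relative to the median of its block of spots in that sample. A value of 0 is therefore the level of a typical spot. Net fluorescence is the whole number from which the value was made. On each array 2 samples of the same group were hybridised, 1 labelled with Cy5 and 1 with Cy3. The groups were thus compared between arrays, 3 per group, and never within an array. Between 18434 and 23790 of 28704 features had a value per sample, and the median net fluorescence was 243 to 868. In every sample all 3 probes lay above the lowest net fluorescence that was measured in it, by 3.08 times (Procr, control) or more.

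Plaur, the urokinase receptor, was 6.66-fold higher in shear than in control samples. Its log2 values in control replicates 1 to 6 were -0.05, 0.12, -1.02, -0.90, 0.26 and -0.04. Those in shear replicates 1 to 6 were 2.58, 1.89, 2.80, 2.29, 2.45 and 2.76. The groups did not overlap, with control replicates 3 and 4 low within their group and shear replicate 2 low within its own. The mean went from -0.27 ± 0.55 (SD, n = 6) to 2.46 ± 0.34 (n = 6), a log2 difference of 2.74 ± 0.36 (SE, limma fit over all features). The lowest shear value was 1.63 above the highest control value.

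In net fluorescence Plaur read between 133 and 517 units in control samples and between 923 and 5264 in shear samples. Its place among all measured features of a sample ran from the 28.4th to the 56.0th percentile in control and from the 85.6th to the 93.6th in shear samples. By this rank too the groups were apart.

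Procr, the protein C receptor, was 6.84-fold higher in shear samples, a difference close to that of Plaur but with far more spread under shear. Its log2 values in control replicates 1 to 6 were 0.16, -0.50, -0.62, -0.59, -0.40 and -1.32. Those in shear replicates 1 to 6 were 2.65, 0.47, 3.55, 2.60, 2.60 and 1.49. The groups did not overlap, but shear replicate 2 lay only 0.31 above the highest control sample, while shear replicate 3 was the highest of all. The mean went from -0.55 ± 0.48 (SD, n = 6) to 2.23 ± 1.08 (n = 6), a log2 difference of 2.77 ± 0.54 (SE, limma).

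The SD of Procr in the shear group was larger than that of 98.1% of the 15603 features of the fit, whose median SD was 0.33. For Plaur, 52.8% of features had a smaller SD under shear. Net fluorescence of Procr was 120 to 551 units in control and 344 to 7408 in shear samples, so the groups overlapped before each sample was set against its block median. In rank within the sample, Procr lay at the 20.9th to 53.4th percentile in control and at the 60.5th to 96.5th in shear samples, with no overlap.

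F3, tissue factor, was 3.42-fold higher in shear samples, with control samples that were more scattered than its shear samples. Its log2 values in control replicates 1 to 6 were 1.65, 0.39, 0.67, -0.51, 1.13 and 1.80. Those in shear replicates 1 to 6 were 2.70, 2.91, 2.30, 3.15, 2.86 and 1.85. The groups touched: shear replicate 6, the lowest of its group, lay 0.04 above control replicate 6, the highest of its own. The mean went from 0.86 ± 0.86 (SD, n = 6) to 2.63 ± 0.48 (n = 6), a log2 difference of 1.77 ± 0.66 (SE, limma).

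Net fluorescence of F3 was 179 to 1836 units in control and 1614 to 6491 in shear samples. By rank within the sample the groups overlapped, at the 37.6th to 87.2th percentile in control and the 85.0th to 95.5th in shear samples. They overlapped too when each sample was centred on the features that no sample lacked, with the lowest shear minus the highest control value at -0.05, with quantile normalization (-0.17) and with cyclic loess (-0.21). Under the same scalings Plaur kept a gap of 1.61 or more and Procr one of 0.33 or more. In the control group the SD of F3 was larger than that of 94.8% of the features.

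On the scale as deposited, all 3 genes had groups that did not overlap, with shear higher, as did 5.76% of the 15603 features (1.6% did not overlap with shear lower). As the genes were chosen on this contrast, nothing follows from that count. Among the 8928 named genes, the change of Procr was in place 10 from the top, that of Plaur in place 11 and that of F3 in place 62.

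**Figure D1:**
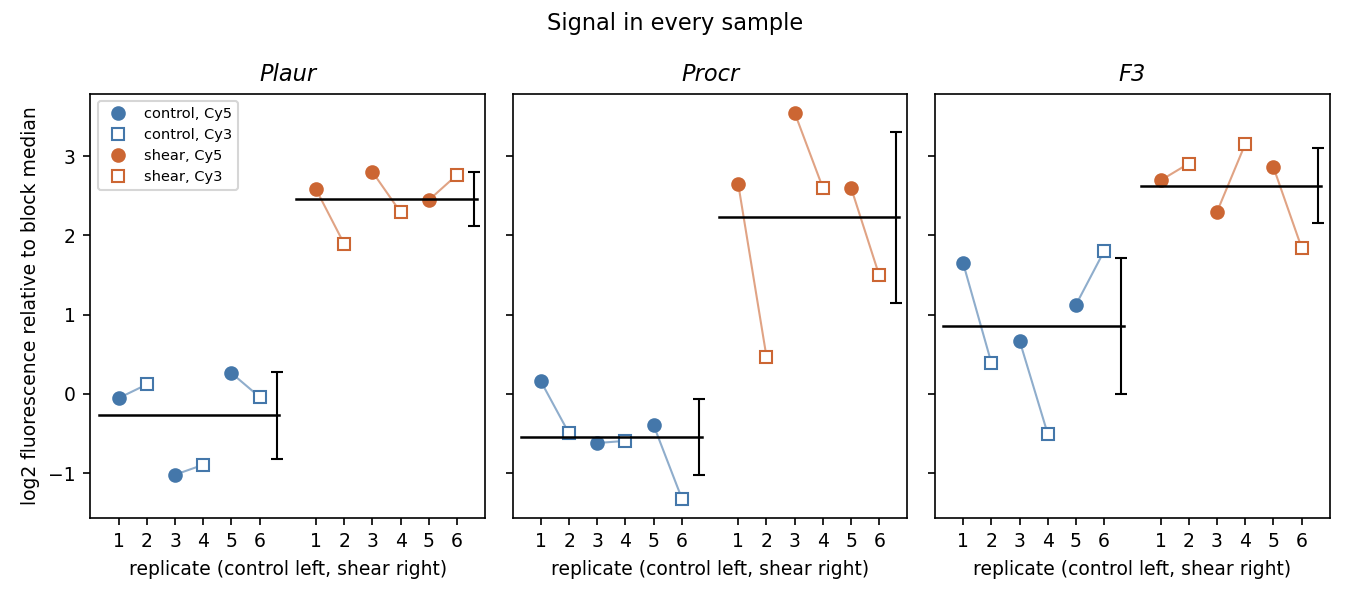
Log2 fluorescence relative to the block median (y axis) of Plaur, Procr and F3 in each replicate (x axis), control in blue and shear in orange. Filled circles are Cy5 and open squares Cy3 samples, thin lines join samples of the same array, and black lines and bars give the group mean and SD. The groups of Plaur lie 1.63 apart, shear replicate 2 of Procr falls to 0.47, and shear replicate 6 of F3 (1.85) sits level with control replicate 6 (1.80).

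Averaged over the 2 samples of an array, Plaur was at 0.03, -0.96 and 0.11 on the control arrays and 2.24, 2.55 and 2.61 on the shear arrays (replicates 1 and 2, 3 and 4, 5 and 6 in turn). Procr was at -0.17, -0.61 and -0.86 against 1.56, 3.07 and 2.05. F3 was at 1.02, 0.08 and 1.46 against 2.80, 2.72 and 2.36. Each shear array was above each control array for all 3 genes. How many of all features had arrays apart in this way was not counted. As the genes were chosen on this contrast, nothing follows from it. Over the 9 pairings of a shear with a control array the difference was 2.13 to 3.56 for Plaur, 1.73 to 3.94 for Procr and 0.89 to 2.72 for F3.

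The array of control replicates 3 and 4 had the lowest array mean of Plaur and of F3, and it was also the array with the fewest measured features, at 72.9% and 64.2% of all. Its part in the result was not tested, but the differences without it were 2.39 ± 0.35 (SE) for Plaur, 2.74 ± 0.53 for Procr and 1.39 ± 0.67 for F3. Of the 3 genes, Plaur moved least within an array, its Cy5 minus Cy3 difference running from -0.32 to 0.69. Procr was higher in the Cy5 sample of 5 of 6 arrays, by 2.18 on the array of shear replicates 1 and 2. F3 varied in both directions, from -0.86 to 1.26.

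With dyes taken apart (chosen after the values were seen), each group had 3 samples per dye. In Cy5 samples the log2 difference was 2.88 for Plaur, 3.22 for Procr and 1.47 for F3, and in Cy3 samples 2.59, 2.33 and 2.07. Groups did not overlap within either dye, at 3 samples each, and the share of all features for which this holds was not counted. The smallest gap was that of F3 in Cy3 samples, 0.04. Over 32 other settings, the difference stayed between 2.39 and 2.93 for Plaur, between 2.33 and 3.22 for Procr and between 1.39 and 2.08 for F3. With all values present and balanced groups, a change of model, filter or tested probes alone cannot move the difference. The error was less settled than the value for F3: the SE was 0.66 with the array as a random block, 0.36 without it and 0.36 with each array averaged.

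**Figure D2:**
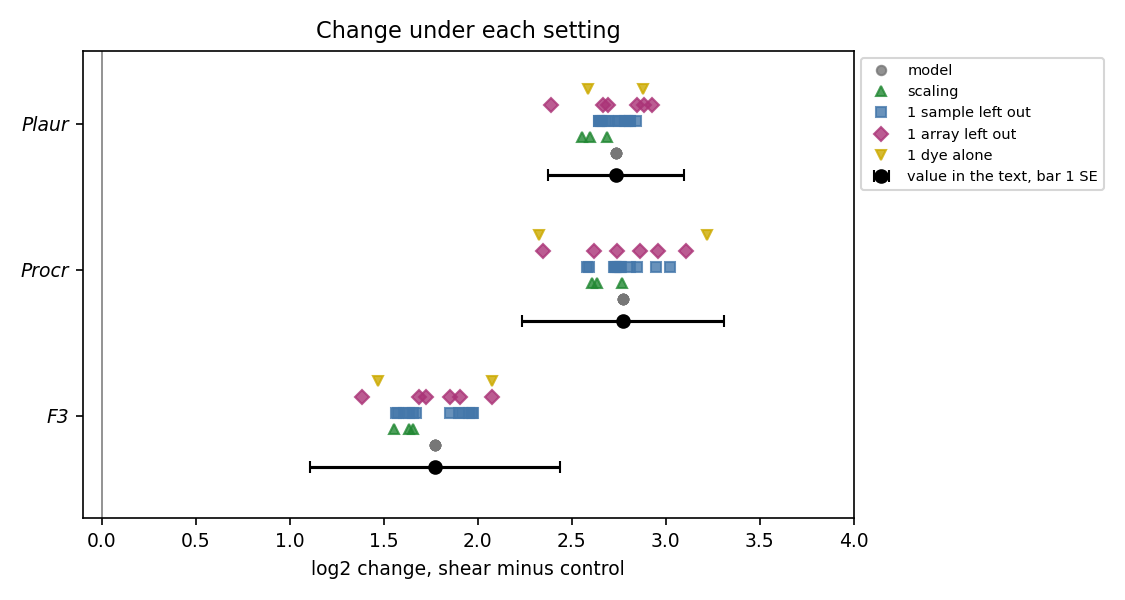
Log2 change, shear minus control (x axis), of each gene in the fit given in the text (black, bar 1 SE) and under the other settings, grouped as models and filters, scalings, 1 sample left out, 1 array left out and 1 dye alone. Every point lies above 0, and F3 ranges from 1.39 to 2.08, below the ranges of Plaur and Procr. Points for models and filters fall at the value in the text by design.

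Likeness of the profiles of the 3 genes over the samples was measured as the root mean square difference of log2 values over the 12 samples, each gene centred on its own mean, among 7777 named genes measured in all samples. Plaur and Procr differed by 0.72, which made Plaur the 8th nearest gene of Procr, and Procr the 43rd nearest of Plaur. Plaur and F3 differed by 0.83, which made F3 the 94th nearest gene of Plaur, and Plaur the 613th nearest of F3. Procr and F3 differed by 1.12. That was below the median distance of all genes from Procr (1.53), with F3 in place 199, and above the median distance from F3 (1.07), with Procr in place 4811. The distance favours genes with a change of like size, and these genes came from the same samples, so no test is attached.

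Nearest to Plaur were Zfp36l2, an RNA-binding protein that promotes mRNA decay (0.45), Ccdc86 (0.45), the orphan receptor Gprc5a (0.45), Fgd6 (0.45) and the matricellular protein Ccn1 (0.47). Nearest to Procr were the esterase Esd (0.63), Zfp36l2 (0.63), the glucose transporter Slc2a1 (0.63), Gprc5a (0.64) and the actin crosslinker Flnc (0.65). Zfp36l2 and Gprc5a thus stood in both lists. Gprc5a went from a mean of -1.78 in control to 0.55 in shear samples, and Zfp36l2 from 1.58 to 4.11.

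Nearest to F3 were Abcb10, a transporter of the mitochondrial inner membrane (0.49), the nucleolar protein Gnl3, also called nucleostemin (0.50), Nfkbiz, a nuclear member of the IkB family (0.52), Gm5788 (0.52) and Msantd3 (0.52). Their log2 differences ran from 1.23 (Nfkbiz) to 1.97 (Gm5788).

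**Figure D3:**
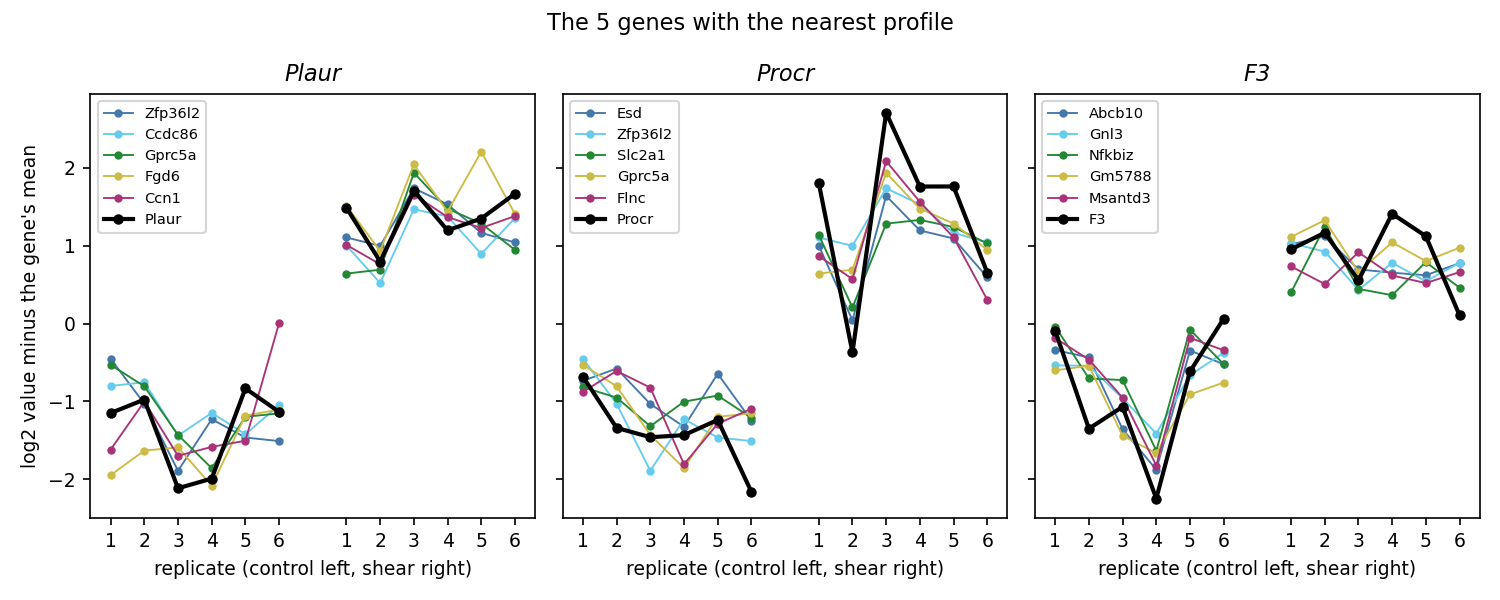
Log2 value minus the gene's own mean (y axis) in each replicate (x axis; control left, shear right) for Plaur, Procr and F3 (black) and the 5 named genes nearest to each. Lines only join the points of a gene. The Procr panel shows the low shear replicate 2 and high shear replicate 3, and the F3 panel the low control replicate 4.

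The partners of these receptors were read from the same fit, in which 232 of 15603 features passed (limma, adjusted p under 0.05), or 1.49%, 1.28% higher and 0.205% lower. The share of higher calls was 86.2%, and 68.6% to 69.0% with the scalings by cyclic loess or by features that no sample lacked. Of 110 genes listed for plasminogen activation, coagulation and the receptors' structural families, 65 were on the array and 55 could be tested. None of the 55 passed. At an unadjusted p under 0.05 there were 7 of 55 (12.7%), against 13.8% of all features. Changes above 0 were seen in 30 of 55 (54.5%), against 61.0% of all features. The median change was 0.04, against 0.11 over all features, and the lowest adjusted p was 0.0916 (limma, Benjamini-Hochberg). Urokinase itself (Plau), Serpine2, vitronectin (Vtn), Itgav, Mrc2, Tfpi2 and F2rl1 were not analysed here.

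Among 19 tested genes of plasminogen activation and of the urokinase receptor's partners, 12 had a change above 0 and the median was 0.09. Highest was Itga5, the alpha chain of the fibronectin receptor, with control values from -0.40 to 1.33 (median 0.47) and shear values from 1.13 to 2.87 (median 2.01). Its groups overlapped, and the log2 difference was 1.54 ± 0.42 (SE), with adjusted p = 0.0943 (limma, Benjamini-Hochberg, n = 6 samples on 3 arrays per group). Its other probes gave 1.72 and 0.97. Without shear replicate 2 it passed, at 1.72, and it was the gene that passed when the array of shear replicates 1 and 2 was left out.

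Plat, the tissue plasminogen activator, differed by 0.77 ± 0.41 (SE), from 0.92 to 2.97 in control and 1.45 to 3.27 in shear samples, with groups that overlapped and another probe at 0.45. Mmp9, a gelatinase, was at 0.52. Among the other integrin chains, Itgb3 was at 0.32, Itgb5 at -0.36 and Itga3 at -0.57. Itgb1 (0.35), Itgam (0.04) and Itgb2 (-0.14) were also tested, but were not among the genes followed over the other settings. Other probes of Itgb1 ran from -0.15 to 0.74. The other probe of Itgb5, with 4 control values, gave 1.55, and the probe used turned to 0.16 without the array of control replicates 1 and 2 and to 0.12 without that of shear replicates 3 and 4. Serpinf2, the main inhibitor of plasmin, had the lowest change, -0.71 ± 0.34. Lrp1, a large endocytic receptor, was at 0.10, but its other probe gave -0.93, and it turned to -0.035 with centring on features that no sample lacked and to -0.036 with cyclic loess. None of these passed.

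Among 25 tested coagulation genes, 10 had a change above 0 and the median was -0.11. Thbd encodes thrombomodulin, which works beside Procr in the activation of protein C. It had a value in 4 control samples, from -0.56 to 0.22, and in all 6 shear samples, from 0.63 to 1.52. The measured samples did not overlap, and the difference was 1.29 ± 0.37 (SE, limma adjusted p = 0.124). F2r, the thrombin receptor PAR1, lay between 0.37 and 0.99 in control and between 1.41 and 2.11 in shear samples, again with no overlap. Its difference was 1.13 ± 0.30 (SE, limma adjusted p = 0.0916), but the other probe gave 0.04. Without the dye term in the fit F2r and Itga5 passed, the only 2 of 55 to do so.

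Mcfd2, a cargo receptor for coagulation factors, was at 0.94 ± 0.39, and its other probe at 1.24. Tfpi, the inhibitor of the tissue factor pathway, was at 0.22 ± 0.27, and its other probe at -0.04. Factor VII, the ligand of tissue factor (F7), was at -0.35, but its other probe, with 4 values per group, gave 0.62. The substrate F10 was at -0.17 and the protein C cofactor Pros1 at -0.05. Proc, the ligand of Procr, was at -1.001 ± 0.40 (SE), from 5.40 to 6.699 in control and 4.49 to 5.66 in shear samples. Its groups overlapped, and another probe gave a change of -0.17. The probes also differed in level, with control means of 5.91 for the probe used and -1.91 for the other. Which of them reports Proc was not tested. Gas6, a ligand of TAM receptors, was at -0.92 ± 0.79, and Fga, a fibrinogen chain, at -1.87 ± 1.53, with a single control sample, replicate 3, at 6.80. Without that sample Fga was at 0.71, the opposite direction. None of these passed.

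Of the genes whose proteins share a fold with these receptors, 11 were tested, 8 had a change above 0 and the median was 0.17. Ifnar1, a class II cytokine receptor as tissue factor is, was at 0.88 ± 0.28 (SE), from 0.79 to 1.17 in control and 1.31 to 2.23 in shear samples. The groups did not overlap and the gene did not pass (limma adjusted p = 0.144). Fcgrt, with an MHC-like fold as Procr has, was at 0.90 ± 0.44, from -0.16 to 2.38 in control and 1.80 to 2.08 in shear samples. Its groups overlapped. The change was 0.33 without the array of control replicates 5 and 6 and 1.49 without that of control replicates 1 and 2. Hfe was at -0.02, which was 0.026 with quantile normalization and -0.63 by its other probe. Cd59a, which has the domain of the Ly6 and uPAR family, was at 0.65 ± 0.28. Ly6e was at -0.15 and Ifngr1 at -0.23.

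**Figure D4:**
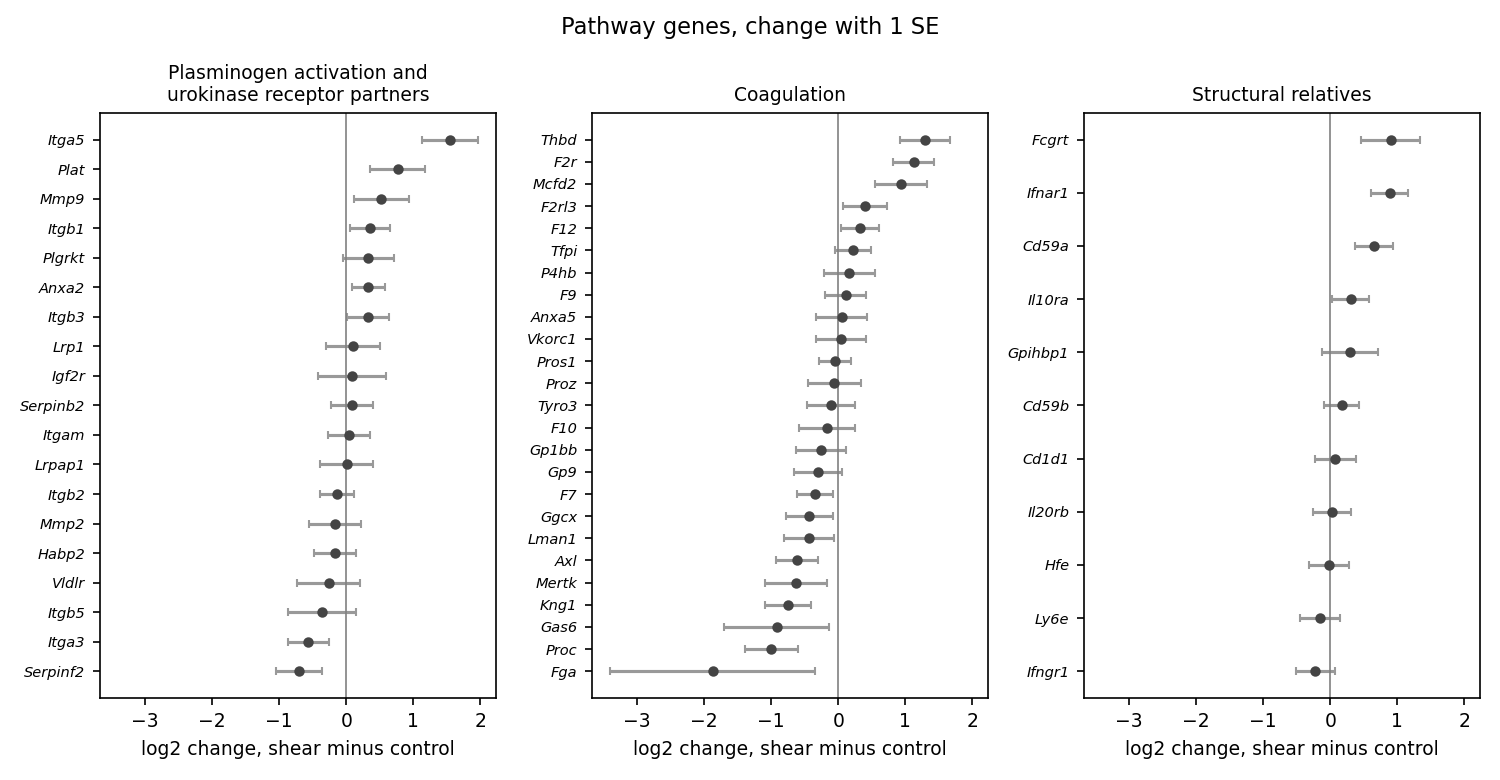
Log2 change, shear minus control (x axis), with 1 SE for the 55 tested genes in the lists of plasminogen activation and urokinase receptor partners, coagulation, and structural relatives. None passed; Itga5 (1.54), Thbd (1.29) and F2r (1.13) were highest and Fga (-1.87) had the widest error.

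Macrophages, endothelial cells and platelets also carry receptors of these systems, so their markers were read in the same fit. None of the 6 tested macrophage and osteoclast, 6 endothelial or 4 platelet markers passed. Changes were above 0 in 4 of the 6 macrophage markers (median 0.28), 4 of the 6 endothelial markers (median 0.36) and 1 of the 4 platelet markers (median -0.28), beside a median of 0.11 over all features. The highest were Laptm5, a lysosomal protein of blood cells, at 0.91 (unadjusted p = 0.00436, limma adjusted p = 0.122, 6 control and 4 shear values), and the endothelial coreceptor Eng at 0.80 (unadjusted p = 0.0431, limma adjusted p = 0.340, 5 control and 6 shear values). Both lacked a value in some samples and so are not in the sums. The probe used for Eng had a control mean of -2.86, far below the typical spot. Another probe of Eng, with 4 control and 6 shear values, gave a change of -0.39, the opposite direction. The summed linear level of markers measured in all samples was 4.08 to 7.09 in control and 4.61 to 8.51 in shear samples for 3 macrophage markers. It was 4.08 to 7.14 and 5.36 to 7.51 for 4 endothelial markers, and 7.53 to 15.7 and 7.74 to 12.8 for 2 platelet markers, so groups overlapped in each. The platelet sum was mostly that of Gp1bb, with a log2 control mean of 3.61 against -0.90 for Pf4. The part of such cells in the results was not tested. Of 9 tested osteoblast and fibroblast markers, Lox rose by 2.10 (limma adjusted p = 0.0255) and Dlx5 fell by 0.97 on the log2 scale (0.0492). Levels in this list were uneven. The matrix genes Sparc, Col3a1 and Col1a2 had control means of 5.48, 5.68 and 4.40, far above the typical spot. Serpinh1 was also high. Lox (1.99), Col1a1 (1.65) and Dlx5 (0.57) were less far above it, and Alpl (-1.01) and Msx2 (-1.65) were below it. Other probes of Col3a1 had control means from 0.51 to 4.65, and the other probe of Col1a2 was at 0.71. Runx2, Sp7 and Bglap were not analysed here. In the lists of 4 adipocyte, 4 chondrocyte and 4 muscle markers tested, none passed.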

How the data were processed

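Total RNA of 6 control and 6 shear samples was measured on 6 spotted 2-colour arrays. The authors' deposited table holds log2 values. In it, each value was the log2 of a whole number over the median of its print block: whole numbers within 0.002 were recovered in 576 of 576 combinations of 48 blocks and 12 samples. The scanner and its background correction: not given in the sources used here. With such scaling, a change in all genes together goes unseen. The pairs of replicates 1 and 2, 3 and 4, 5 and 6 were treated as 1 array each, inferred from the series' design text and the dyes. Over features, pairs on an array correlated at 0.953 to 0.982, and other samples of a group at 0.871 to 0.935.

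GEO's platform annotation gave 18511 probes 1 symbol, 937 several and 9256 none, and 18267 symbols were updated by Entrez number. Per gene, the probe with most values, then the highest mean, was kept if at least 4 samples per group had a value. limma 3.58.1 (R 4.3.3) was fitted to median-centred values with group and dye as terms and array as a random block (correlation 0.736), with Benjamini-Hochberg adjustment over 15603 features and a threshold of 0.05. The procedure was tested on simulated data. Tables and plots were made with matplotlib 3.10.9, pandas 2.3.3 and numpy 2.4.6 in Python 3.11.15. Precision is limited by the number of arrays.

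The members, lists and tests were chosen with earlier results of these data known. Named were the 3 members, their direct partners, the 3 highest and 3 lowest changes of each pathway list, those that passed, and the 5 nearest profiles per member. Itgb1, Itgam and Itgb2 were added as the remaining tested integrin chains, and Anxa2, Serpinb2 and Gp1bb as pathway genes with the AP-1 letters. Alternatives were other blocks, scalings, filters and probes, and each sample or array left out.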

Additional observations from a re-analysis of the deposited data

Results flagged for a closer look

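In 54 groups of samples, the values of the members and of the named pathway genes were searched for a sample far from the others, and 1 was found. The value of Fga in control replicate 3 was 6.80, against -1.38 in the next sample (gap over range 0.869, n = 5). Chance gives about 1 in 20 such groups. No group of Plaur, Procr or F3 held such a sample. The difference of Fga between groups was -1.87 with this sample and 0.71 without it.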

How the results depend on the processing

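Settings that change only the model, filter or tested probes cannot move the changes of Plaur, Procr and F3. Over all 32 settings these changes kept their direction and moved by less than 1 SD, pooled over both groups. With 1 sample left out they were 2.64 to 2.84 for Plaur, 2.58 to 3.02 for Procr and 1.56 to 1.98 for F3. The features that passed numbered 232, and 104 (without control replicate 3) to 244 with 1 sample left out. They numbered 1717 without the array block, 72 with each array averaged, 366 without the dye term, 354 with every probe tested and 133 with quantile normalization. Without the arrays of control replicates 1 and 2, 3 and 4, and 5 and 6 they were 116, 128 and 83, and without those of shear replicates 139, 38 and 67. The share of higher calls was 86.2%, and 68.6% with centring on the features measured in all samples and 69.0% with cyclic loess, where the median change was -0.02 and -0.01 instead of 0.11. Of the pathway genes, 5 passed without the array block, 2 without the dye term, 0 to 1 with 1 sample left out and 1 without the array of shear replicates 1 and 2. The fit without the array block takes samples of the same array as independent, though they correlated at 0.953 to 0.982. Named pathway genes that passed nowhere changed sign as follows. With 1 sample left out, Fga ran from -2.09 to 0.71 (without control replicate 3), F10 from -0.36 to 0.014, Hfe from -0.10 to 0.061, Lrp1 from -0.038 to 0.24 and Pros1 from -0.099 to 0.0036. Lrp1 was at -0.035 with centring on features measured in all samples, -0.036 with cyclic loess, -0.25 without the array of control replicates 3 and 4 (where Fga was at 0.71) and -0.11 without that of shear replicates 5 and 6 (where Hfe was at 0.15). Hfe was at 0.026 with quantile normalization. Without the array of control replicates 1 and 2, F10 was at 0.072, Hfe at 0.090, Itgb5 at 0.16 and Ly6e at 0.040. Without that of control replicates 5 and 6, Hfe was at 0.082 and Pros1 at 0.051. Without that of shear replicates 3 and 4, Itgb5 was at 0.12 and Pros1 at 0.054. The cause of these moves was not tested. Replicate numbers did not pair the samples (correlations of same-numbered samples -0.09 to 0.12). With the replicate number as a block 1452 features and 8 pathway genes passed, again with samples of the same array taken as independent. The changes of the members were as before (2.74, 2.77 and 1.77), which the balanced groups and complete values fix in advance.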

Other observations

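Of the pathway genes on the array, 10 had too few values to be tested. Slurp1, a secreted protein of the Ly6 and uPAR family, had a value in 3 control and 6 shear samples, and plasminogen (Plg) in 3 control and 4 shear samples. Prothrombin (F2) had a value in 1 sample of each group.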
